A study of Mus musculus with 12 samples.

Results

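Macroautophagy wraps cytoplasm, organelles or protein aggregates in a double membrane, the autophagosome, which fuses with the lysosome. The 40 genes described here encode its core machinery, its cargo receptors and a pair of its transcription factors. They were taken by name from the 24787 genes in the count tables: every gene whose symbol starts with Atg and a digit, plus 22 genes that encode kinases, scaffolds, ATG8 proteins, receptors and transcription factors of the process. All 40 passed the filter on low counts and were among the 14172 genes tested. The samples were livers of C57Bl/6 mice, with 4 libraries in each of 3 groups. Mice labelled HFD+MEC1 ate a high-fat diet (HFD) and received daily injections of 0.5 mg/kg MEC1 into the peritoneum, HFD mice ate the same diet and received vehicle, and ND mice ate a normal diet. HFD mice were assigned to MEC1 or vehicle at random after 2 months on the diet. MEC1 is known here only by this code name, and the series title concerns PROTACs and mitophagy, the removal of mitochondria by autophagy.

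Autophagosome formation starts with the ULK kinase complex, which acts on a lipid kinase complex built around Beclin 1 and the catalytic subunit encoded by Pik3c3. Lipid-binding WIPI proteins, the membrane protein ATG9 and the lipid transporter ATG2 expand the membrane, and a pair of ubiquitin-like conjugation reactions couples ATG8 proteins (the LC3 and GABARAP subfamilies) to it. Cargo receptors such as p62 bind both the cargo and ATG8 proteins. In liver, autophagy supplies nutrients in fasting and takes part in the turnover of lipid droplets and mitochondria. Much of its control acts on proteins, and all values here are mRNA levels; autophagic flux was not measured.

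Levels are given as CPM, counts scaled to TMM-adjusted library totals, unless RPKM is named. Log2 fold changes carry their standard error, and a gene is said to have risen or fallen only at an adjusted p under 0.05 in edgeR's quasi-likelihood test. Sex, age, the dosing period and any injection of ND mice are not given in the sources used here. Nor do the labels say that every sample is a separate mouse. The p-values therefore set group differences against the spread between these libraries, which may be technical in part. Totals ran from 39916405 to 51340317 counts per library. The libraries differed from the other replicates of their group by a root mean square of 0.446 to 0.559 on the log2 scale over all tested genes, with HFD+MEC1 replicates 3 and 1 the farthest. The 40 genes varied less within groups than the typical gene, with a median SD of 0.145 log2 units against 0.225 for all tested genes. These medians were not matched for expression level, and Atg9b, the lowest of the 40 at a mean of 0.284 CPM, had the largest SD (0.616). The hepatocyte marker sum was 77536 to 105963 CPM in HFD+MEC1, 97106 to 107700 CPM in HFD and 95546 to 111200 CPM in ND, with 0 of its 10 markers absent. Since whole liver was sequenced, a change in the share of a cell type and a change of RNA per cell cannot be told apart.

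On the scale of the authors' RPKM, which divides by gene length, the 3 highest of the 40 were a cargo receptor gene and a pair of ATG8 genes. Sqstm1, which encodes the ubiquitin-binding receptor p62, stood at 139 ± 20.6 RPKM in HFD+MEC1, 144 ± 30.7 RPKM in HFD and 110 ± 10.5 RPKM in ND (SD, n = 4 each). In HFD livers it was followed by Gabarap with 121 RPKM, Gabarapl1 with 112 RPKM, Tax1bp1 with 33.1 RPKM and Map1lc3b with 31.1 RPKM. Over the 4 HFD libraries Sqstm1 ran from 118 to 188 RPKM, Gabarap from 115 to 132 RPKM and Gabarapl1 from 98.9 to 138 RPKM. These ranges overlapped, but Sqstm1 was above Gabarapl1 within each HFD library. Gabarap was above Sqstm1 in HFD replicate 2 and below Gabarapl1 in HFD replicate 3. Sqstm1 made up 62.0% of the RPKM of the 5 cargo receptors in HFD+MEC1, 62.4% in HFD and 60.03% in ND. The RPKM of the 3 GABARAP genes summed to 4.14 ± 0.343 times that of the 2 LC3 genes in HFD+MEC1, 4.62 ± 0.213 times in HFD and 4.52 ± 0.256 times in ND. At the low end stood Tfeb with 1.48 RPKM and Atg9b with 0.0596 RPKM in HFD. Atg9b, a homolog of the vesicle protein gene Atg9a, had 5 to 15 counts per library in HFD+MEC1, 6 to 27 in HFD and 11 to 20 in ND. The other 39 genes averaged over 1 RPKM in all 3 groups. On RPKM the median log2 fold change of all tested genes was 0.084 in HFD minus ND and 0.075 in HFD+MEC1 minus ND. With TMM these medians were -0.003 and 0.003, so RPKM sets HFD and HFD+MEC1 higher against ND than CPM does.

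**Figure D1:**
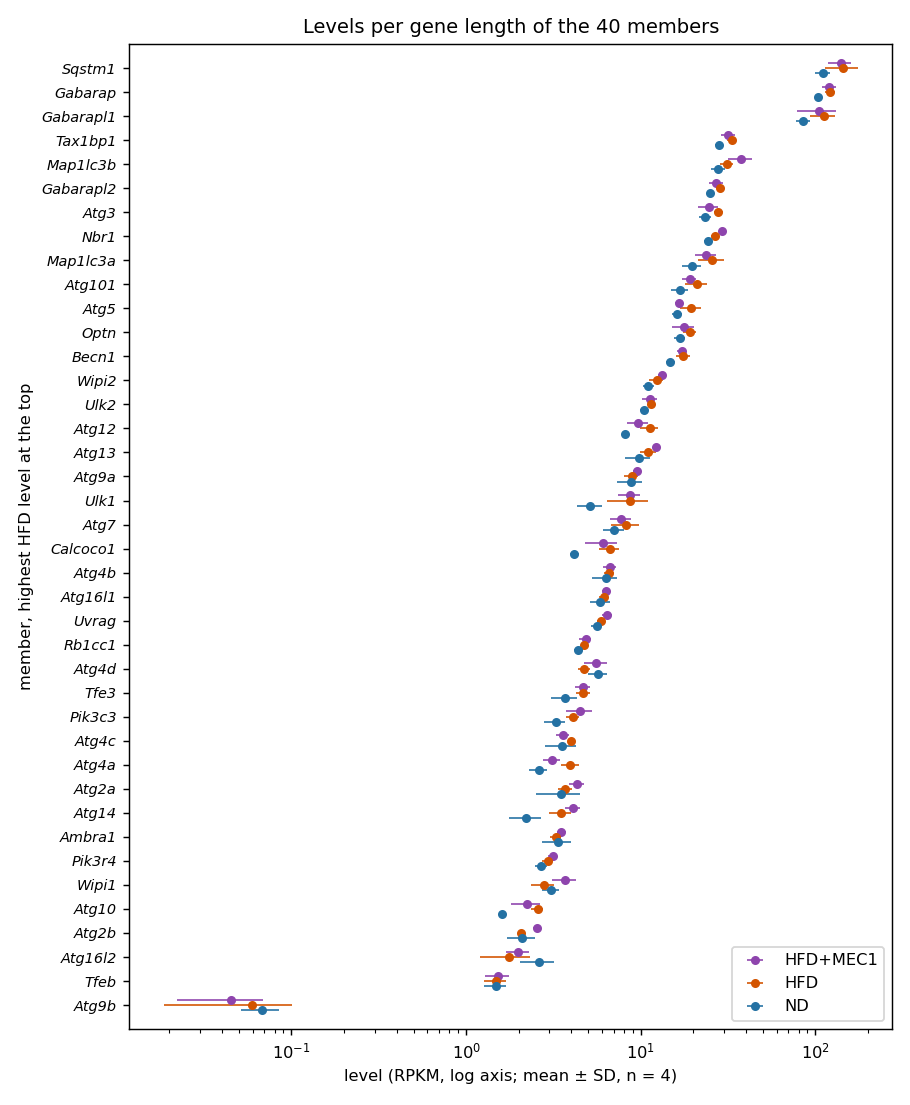
Mean level of each of the 40 genes in RPKM on a log axis, with bars of 1 SD over 4 libraries, for HFD+MEC1, HFD and ND. Sqstm1, Gabarap and Gabarapl1 lead at 112 to 144 RPKM in HFD, and Atg9b is the lowest at 0.0596 RPKM.

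The promoters of Atg14, Ulk1 and Calcoco1 are shown because, as given below, Atg14 and Ulk1 rose in both comparisons with ND and Calcoco1 had the smallest p on HFD. They cover 250 bases before to 50 bases after the start that RefSeq gives on GRCm38.p6, written 5′ to 3′ on the gene's strand. Capitals mark CACGTG, the E-box core bound by TFEB, TFE3 and other basic helix-loop-helix factors. The Atg14 window is chr14:47568385-47568684, the Ulk1 window chr5:110810032-110810331 and the Calcoco1 window chr15:102722129-102722428, all on the minus strand. The RefSeq start of Atg14 lies inside the longer gene model of GENCODE, whose positions are used for genes below.
Atg14: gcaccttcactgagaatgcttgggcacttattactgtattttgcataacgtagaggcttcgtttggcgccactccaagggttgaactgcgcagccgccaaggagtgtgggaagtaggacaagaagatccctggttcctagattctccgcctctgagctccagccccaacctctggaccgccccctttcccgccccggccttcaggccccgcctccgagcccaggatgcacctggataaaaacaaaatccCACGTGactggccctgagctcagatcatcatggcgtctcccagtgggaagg
Ulk1: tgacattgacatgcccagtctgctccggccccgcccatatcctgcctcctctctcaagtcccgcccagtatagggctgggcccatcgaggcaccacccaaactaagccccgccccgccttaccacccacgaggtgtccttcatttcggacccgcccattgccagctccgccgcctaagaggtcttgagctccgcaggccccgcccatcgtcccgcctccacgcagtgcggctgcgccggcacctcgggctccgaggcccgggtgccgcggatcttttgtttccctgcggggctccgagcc
Calcoco1: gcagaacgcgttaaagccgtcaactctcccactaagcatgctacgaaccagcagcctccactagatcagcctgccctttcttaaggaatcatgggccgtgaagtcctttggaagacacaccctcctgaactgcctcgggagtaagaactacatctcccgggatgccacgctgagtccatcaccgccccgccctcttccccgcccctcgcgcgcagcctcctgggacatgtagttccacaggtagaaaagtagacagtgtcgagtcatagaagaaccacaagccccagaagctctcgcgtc

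In the Atg14 promoter the E-box core begins 1 base before the start, while the other 2 windows hold none of it. RefSeq windows were matched for 34 of the 40 genes. The core was found in 4 of these 34, 11.8% of them, against 8.09% of 27025 genes with a window. Beside Atg14 these were Atg3, which carries it 94 and 71 bases before the start, Atg5 at 14 bases before and Atg7 at 132 bases before. The Atg7 window, chr6:114670846-114671145, lies inside the GENCODE gene, which begins at 114643097 on the plus strand. Only Atg14 of these 4 rose in any comparison. The forkhead element GTAAACA was in 0 of the 34 and in 4.05% of all genes. Both motifs were searched on both strands. A match describes letters in a window and no binding was measured.

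The comparison of HFD with ND asked how the diet, together with any effect of vehicle injection, went with expression of these genes. On HFD 6 of the 40 genes rose, 0 fell and 34 did not pass. Over all tested genes 6.30% were called, 3.35% higher and 2.95% lower. The 6 sit at different steps: Ulk1 in the initiating kinase complex, Atg14 in the lipid kinase complex, Atg10 and Atg12 in conjugation, Atg4a among the ATG8 proteases and Calcoco1 among the receptors. Log2 fold changes of the 40 ran from -0.68 to 0.66, and their median was 0.09 against -0.00 over all tested genes. Of the 40, 28 were positive, beside 49.4% of all tested genes. At an unadjusted p under 0.05, 10 were higher and 2 lower, beside 10.5% and 10.2% of all tested genes and 20.7% for both directions. The HFD and ND libraries did not overlap in 9 of the 40, beside 14.3% of all tested genes. In 7 of them HFD was higher, beside 7.46%, and in 2 lower, beside 6.81%.

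Ulk1 encodes the kinase that starts autophagosome formation, and lies on chromosome 5 from 110784488 to 110810097 on the minus strand (GRCm38). It had 56.1, 44.9, 60.9 and 63.6 CPM in HFD+MEC1, 49.6, 40.4, 68.2 and 65.2 CPM in HFD, and 33.3, 35.9, 42.1 and 30.2 CPM in ND. HFD replicate 2 lay below the highest ND library, and the other 3 HFD libraries lay above all ND libraries. Its log2 fold change on HFD was 0.66 ± 0.16 (adjusted p = 0.0263). The other 4 genes of the kinase complex, Ulk2, Atg13, Rb1cc1 and Atg101, were each positive and none passed (median of all 5, 0.09).

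Atg14 encodes the subunit that directs the lipid kinase to sites of autophagosome formation, and lies on chromosome 14 from 47540893 to 47570649. Its level was 16.4, 16.1, 20.2 and 17.6 CPM in HFD+MEC1, 13.5, 13.5, 14.0 and 18.3 CPM in HFD, and 7.83, 9.68, 12.2 and 10.6 CPM in ND. All HFD libraries were above all ND libraries, and HFD replicate 4 stood above the other 3. The log2 fold change was 0.56 ± 0.14 (adjusted p = 0.0257), and 5.53% of its exonic length overlaps a gene on the opposite strand. Becn1, the scaffold of the same complex, had 51.3, 50.6, 50.9 and 54.4 CPM in HFD+MEC1, 48.5, 54.3, 55.1 and 50.7 CPM in HFD, and 46.4, 46.5, 46.0 and 49.6 CPM in ND. The HFD and ND ranges overlap, its log2 fold change was 0.15 ± 0.07 (adjusted p = 0.256), and 43.9% of its exonic length is shared with an opposite-strand gene. The opposite-strand share was 28.3% for Gabarapl1, 19.3% for Atg4d, 17.6% for Uvrag and 17.3% for Sqstm1. Atg9a shares 31.8% of its exonic length with a gene on the same strand. Whether counting used strand is not given in the sources used here.

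Atg10 and Atg12 rose in the conjugation machinery. ATG12 is a ubiquitin-like protein that is attached to ATG5, and ATG10 is the enzyme that passes it on. Atg12 had 33.2, 29.7, 28.6 and 27.9 CPM in HFD+MEC1, 32.5, 39.7, 35.1 and 31.1 CPM in HFD, and 26.3, 27.1, 26.4 and 27.3 CPM in ND (log2 fold change on HFD 0.37 ± 0.09, adjusted p = 0.0215). Atg10, on chromosome 13 from 90935356 to 91223968, had 5.07, 4.83, 3.57 and 4.36 CPM in HFD+MEC1, 5.42, 5.18, 5.13 and 4.70 CPM in HFD, and 3.39, 3.49, 3.36 and 3.52 CPM in ND (0.56 ± 0.15, adjusted p = 0.0345). In both genes the ND libraries lay close together and below every HFD library.

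The remaining conjugation genes did not pass. Atg5, which accepts ATG12, averaged 57.2 ± 7.23 CPM in HFD livers and 50.8 ± 4.66 CPM in ND livers (0.17 ± 0.09, adjusted p = 0.329). Atg5 had 51.5, 56.9, 48.9 and 46.0 CPM in the ND libraries. Atg7, the activating enzyme of both reactions, had 43.1, 35.0, 36.5 and 41.1 CPM in HFD+MEC1, 44.3, 37.2, 47.4 and 35.1 CPM in HFD, and 32.02, 43.1, 41.2 and 34.5 CPM in ND, and the 3 groups overlapped. It averaged 41.0 ± 5.79 CPM in HFD livers and 37.7 ± 5.28 CPM in ND livers (0.12 ± 0.12, adjusted p = 0.614). Atg16l2, a homolog of the scaffold gene Atg16l1, had the lowest fold change of the 40: it averaged 5.41 ± 1.55 CPM in HFD livers and 8.70 ± 2.22 CPM in ND livers (-0.68 ± 0.21, adjusted p = 0.0702), with no overlap. It was picked out after its values were seen, as were Atg4c and Atg4d below.

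ATG4 proteases trim ATG8 precursors and release ATG8 proteins from lipid. Atg4a, on the X chromosome from 140956907 to 141164270, had 8.63, 8.77, 7.39 and 9.59 CPM in HFD+MEC1, 9.62, 11.7, 11.6 and 10.2 CPM in HFD, and 7.13, 7.04, 8.36 and 7.74 CPM in ND. Every HFD library lay above every ND library (0.51 ± 0.12, adjusted p = 0.0204). Of its transcript sequence in 50-base stretches, 51.2% also occurs in other genes, foremost its pseudogene, which has no row in the count tables. Reads of the pair may not be separated. Atg4d averaged 17.7 ± 0.840 CPM in HFD livers and 22.8 ± 2.601 CPM in ND livers, with no overlap, and did not pass (-0.37 ± 0.11, adjusted p = 0.0627).

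Calcoco1 encodes an ATG8-binding receptor that in human cells serves the turnover of endoplasmic reticulum, and lies on chromosome 15 from 102706777 to 102722178. It had 22.04, 16.3, 26.7 and 20.8 CPM in HFD+MEC1, 22.9, 19.7, 24.9 and 25.4 CPM in HFD, and 14.7, 17.03, 15.6 and 15.1 CPM in ND. All HFD libraries were above all ND libraries, and its log2 fold change of 0.57 ± 0.13 had the smallest p of the 40 (adjusted p = 0.0154). Sqstm1 had 339.9, 305, 444 and 349.9 CPM in HFD against 291, 291, 325 and 277 CPM in ND. HFD replicate 2 lay within the ND range and HFD replicate 3 far above it, and the gene did not pass (0.28 ± 0.12, adjusted p = 0.187). The 5 receptors, which also include Nbr1, Optn and Tax1bp1, were all positive.

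All 5 ATG8 genes were positive on HFD as well, with a median of 0.14, and none passed. Map1lc3b, whose product LC3B is the usual marker of autophagosomes, had 64.8, 61.0, 68.7 and 68.5 CPM in HFD against 58.0, 67.2, 67.5 and 58.2 CPM in ND (0.07 ± 0.11, adjusted p = 0.778), and these ranges overlap. Of the 6 genes of membrane supply and lipid transfer 5 were negative and none passed (median -0.10). The transcription factor genes did not pass either. Tfeb averaged 5.16 ± 0.521 CPM in HFD livers and 5.51 ± 0.614 CPM in ND livers (-0.09 ± 0.15, adjusted p = 0.785), and Tfe3 21.0 ± 1.45 CPM in HFD livers and 17.7 ± 2.34 CPM in ND livers (0.25 ± 0.11, adjusted p = 0.191).

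**Figure D2:**
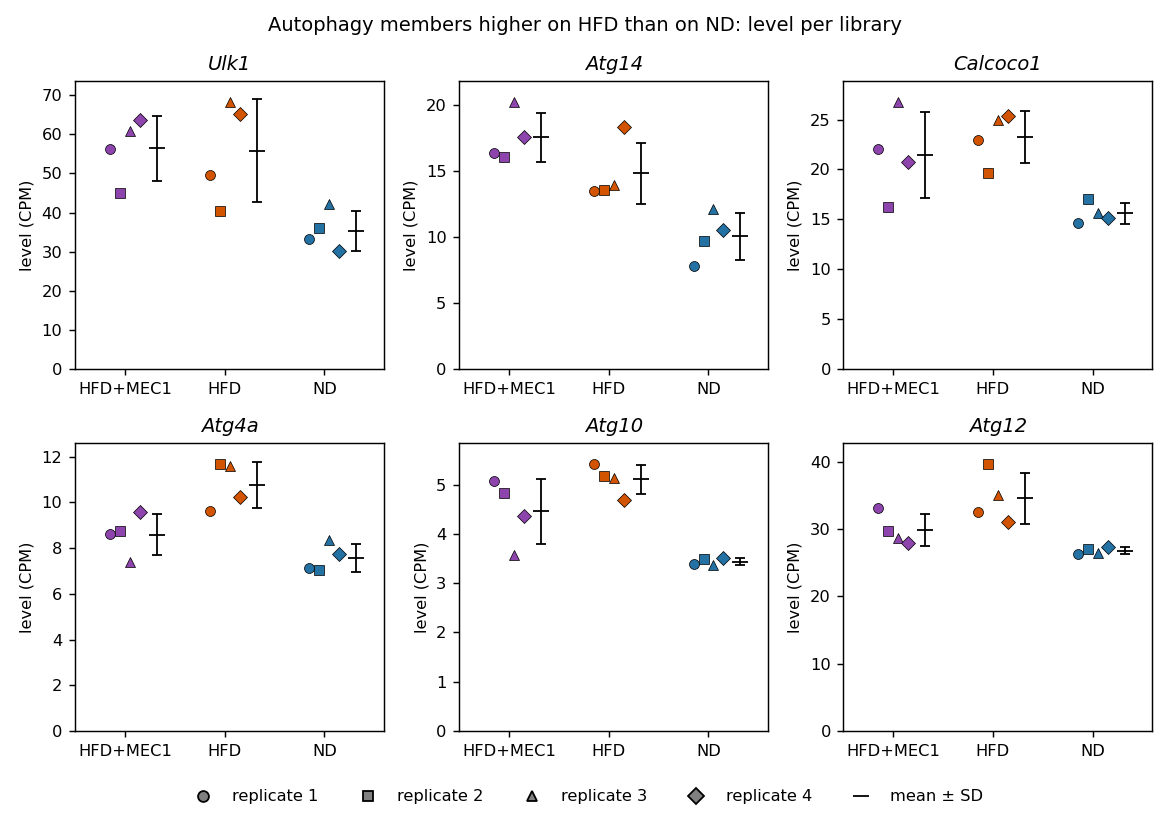
Level in CPM of the 6 genes that rose on HFD, 1 point per library with mean and SD, in HFD+MEC1, HFD and ND. For Ulk1, HFD replicate 2 (40.4 CPM) falls below ND replicate 3 (42.1 CPM), and for the other 5 genes HFD and ND do not overlap.

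The directions of the 6 were stable and their calls were not. Leaving out any 1 of the 12 libraries gave log2 fold changes of 0.55 to 0.78 for Ulk1, 0.44 to 0.66 for Atg14, 0.53 to 0.64 for Calcoco1, 0.47 to 0.56 for Atg4a, 0.54 to 0.60 for Atg10 and 0.30 to 0.42 for Atg12. All 6 calls were lost without HFD replicate 3, ND replicate 1 or ND replicate 4, at adjusted p of up to 0.0878. Without ND replicate 4, Atg4d was the 1 member called, and lower. It was also called lower, beside the 6, without HFD+MEC1 replicate 3 or 4, in the fit of the 2 groups alone and with DESeq2. DESeq2 called Atg16l2 lower as well, and 9.82% of all genes it tested. The count over all 40 was 2 without ND replicate 2 (Atg12 and Calcoco1), 3 without HFD replicate 2 (Ulk1, Atg14 and Calcoco1) and 4 without HFD replicate 4, where Ulk1 and Atg14 were lost. Without HFD replicate 1 or ND replicate 3 it was 5, and Atg10 was lost. Over all tested genes 893 (6.30%) were called with all libraries. This dropped to 423 (2.95%) without HFD replicate 3, 562 (3.91%) without ND replicate 1 and 473 (3.30%) without ND replicate 4. It was 781 (5.44%) without ND replicate 2 and 607 (4.23%) without HFD replicate 2. Without HFD replicate 1 it was 681 (4.74%), and without ND replicate 3 it was 689 (4.80%). Without HFD replicate 4, where Ulk1 and Atg14 were lost, it did not drop (911, 6.34%).

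**Figure D3:**
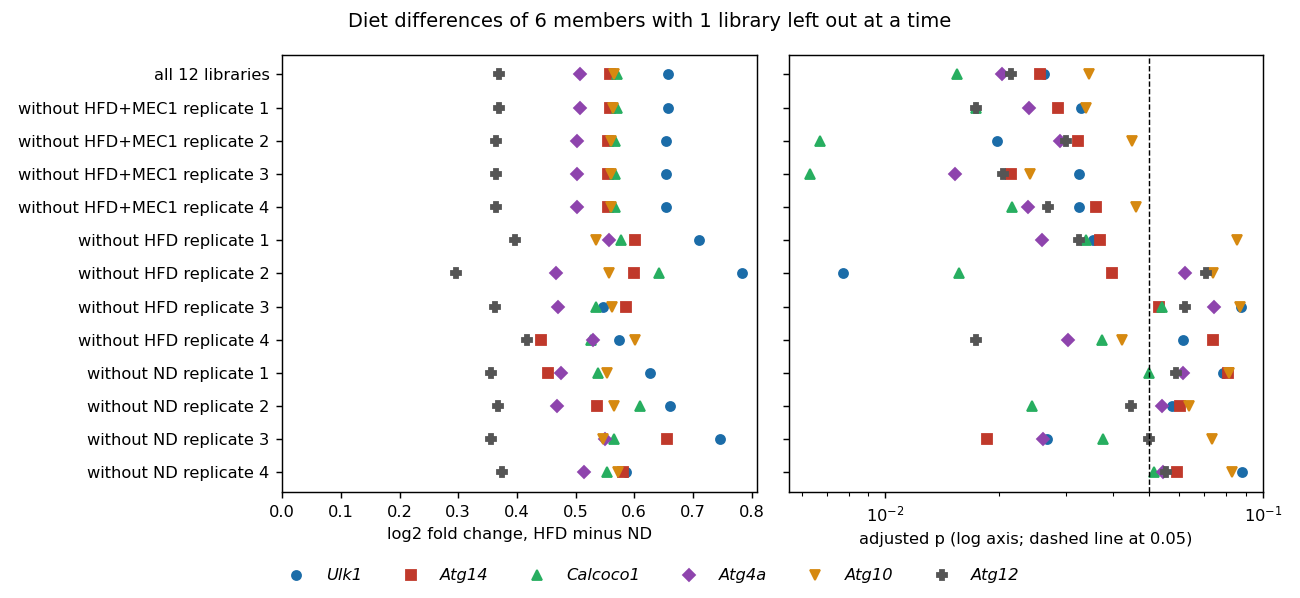
Log2 fold change of HFD minus ND (left) and adjusted p on a log axis (right) for the 6 genes, with all 12 libraries and with 1 library left out at a time. Fold changes stay above 0 throughout, between 0.30 and 0.78, while all 6 lie above an adjusted p of 0.05, the dashed line, without HFD replicate 3, ND replicate 1 or ND replicate 4.

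Markers of other liver cell types were summed for the same comparison. Of 16 Kupffer cell and macrophage markers 15 were positive on HFD, beside 49.4% of all tested genes. Gpnmb, 1 of the 16 (6.25%), rose, beside 6.30% of all tested genes called. The 16 summed to 463 to 722 CPM in HFD and 389 to 571 CPM in ND. The 12 sinusoidal endothelial markers summed to 419 to 510 CPM in HFD and 305 to 464 CPM in ND, and the 8 cholangiocyte markers to 52.4 to 70.3 CPM in HFD and 76.8 to 104 CPM in ND. The cholangiocyte sums did not overlap between the groups, while those of macrophage, sinusoidal, stellate, lymphocyte and neutrophil, and red blood cell markers did. Of the 10 hepatocyte markers 1 fell on HFD, the urea cycle gene Cps1 (-1.18, adjusted p = 0.00498). Of 6 adipocyte markers 2 were tested. The lipase gene Lipe fell, and the other was positive and did not pass (median of the 2, 1.46). The 6 summed to 10.5 to 21.2 CPM in HFD and 11.2 to 12.8 CPM in ND, and these sums overlapped. Lep and Plin1 were at 0 in every library of all 3 groups. The part of these cells in the results above was not tested.

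The randomised comparison of HFD+MEC1 with HFD addressed the effect of the compound on livers of HFD mice. No member passed: 0 of 40 at an adjusted p under 0.05 with edgeR, and 0 with DESeq2, limma-voom and limma on RPKM. Over all tested genes edgeR called 0.0282%, DESeq2 2.86%, limma-voom 0.0141% and limma on RPKM 0.00%. With so few calls among all genes, 0 of 40 with edgeR or limma says little about these genes. At an unadjusted p under 0.05 there were 7, beside 14.8% of all tested genes. Of these 4 were higher, beside 6.87%, and 3 lower, beside 7.96%. Log2 fold changes ran from -0.32 to 0.43 with a median of 0.01, against 0.01 over all tested genes, and 22 of the 40 were positive, beside 51.1%. The groups did not overlap in 4 of the 40, beside 7.11% of all tested genes. Atg2b and Map1lc3b were higher in HFD+MEC1, beside 3.13% of all tested genes, and Atg4a and Atg4c were lower, beside 3.98%. This comparison and that of HFD with ND share the HFD libraries.

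Atg2b, which encodes a lipid transfer protein that feeds the growing membrane, had the smallest p of the 40. It stood at 29.0, 31.5, 33.3 and 36.1 CPM in HFD+MEC1, 26.4, 25.1, 24.7 and 27.1 CPM in HFD, and 26.9, 22.8, 30.5 and 32.1 CPM in ND. All HFD+MEC1 libraries were above all HFD libraries, and the ND libraries spanned both (0.33 ± 0.11, adjusted p = 0.171). Wipi1, whose product binds the lipid made by the Pik3c3 kinase, had 6.02, 9.61, 8.83 and 9.27 CPM in HFD+MEC1, 5.69, 6.08, 7.21 and 6.04 CPM in HFD, and 6.66, 8.06, 8.12 and 6.68 CPM in ND. HFD+MEC1 replicate 1 lay among the HFD libraries and the other 3 lay above them (0.43 ± 0.16, adjusted p = 0.217). Without HFD+MEC1 replicate 1 Wipi1 was called, at 0.56 with an adjusted p of 0.0424, and 460 of all tested genes were called against 4 with it. Of the 6 genes of membrane supply and lipid transfer, 5 had positive log2 fold changes in HFD+MEC1 (median 0.18) and 0 passed.

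Map1lc3b had 70.0, 69.4, 100.2 and 81.0 CPM in HFD+MEC1 against 64.8, 61.0, 68.7 and 68.5 CPM in HFD. The lowest HFD+MEC1 library was just above the highest HFD library, and HFD+MEC1 replicate 3 stood well above the rest (0.29 ± 0.11, 95% interval 0.06 to 0.52, adjusted p = 0.232). The other ATG8 genes had log2 fold changes close to 0, and 3 of the 5 were negative. Atg4a was lower in every HFD+MEC1 library than in any HFD library, with means of 8.59 ± 0.906 CPM in HFD+MEC1 and 10.8 ± 1.01 CPM in HFD (-0.32 ± 0.12, adjusted p = 0.225). Atg12 (-0.21 ± 0.09, adjusted p = 0.286) and Atg5 (-0.22 ± 0.09, adjusted p = 0.290) were among the 5 of 7 conjugation genes with negative values. Atg5 had 47.3, 50.9, 47.8 and 50.02 CPM in HFD+MEC1 against 65.9, 58.8, 55.6 and 48.5 CPM in HFD, where replicate 4 fell within the HFD+MEC1 range.

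**Figure D4:**
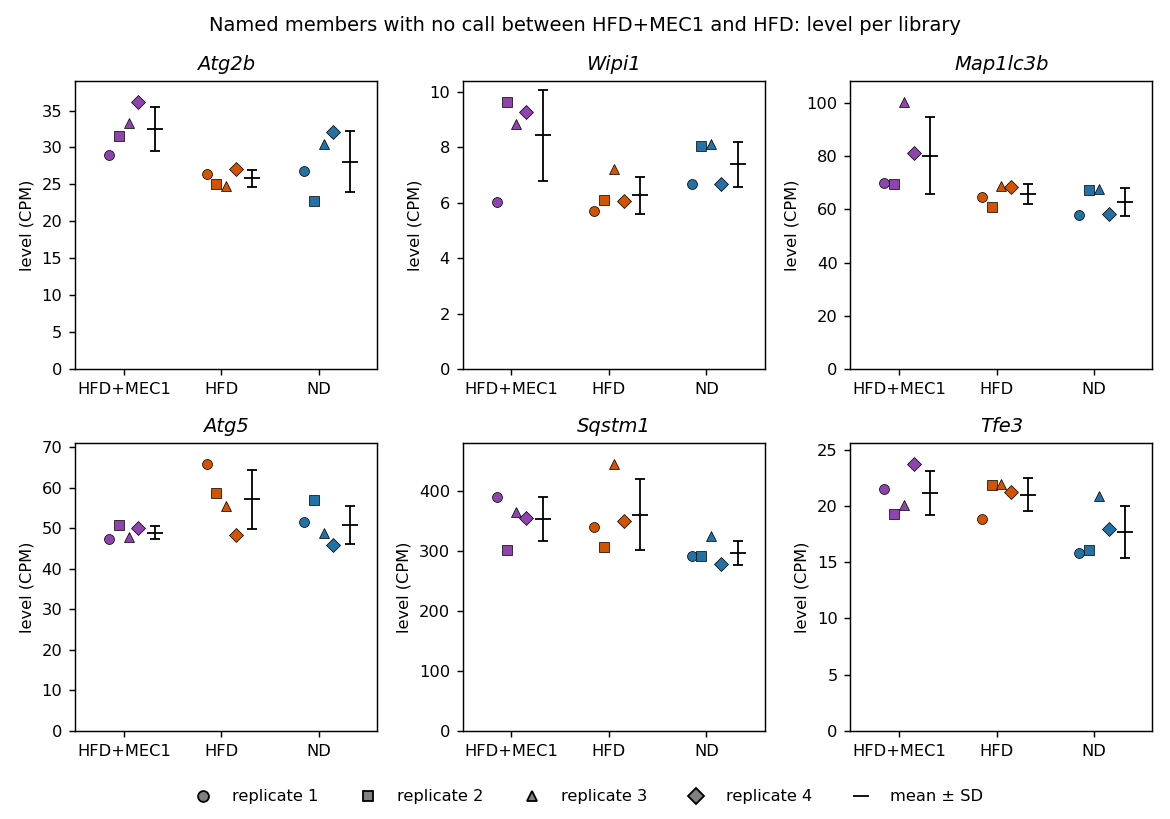
Level in CPM of Atg2b, Wipi1, Map1lc3b, Atg5, Sqstm1 and Tfe3, 1 point per library with mean and SD, in HFD+MEC1, HFD and ND. Atg2b and Map1lc3b do not overlap between HFD+MEC1 and HFD, Wipi1 and Atg5 overlap by 1 library each, and Sqstm1 and Tfe3 overlap widely.

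For the best-known steps the intervals bound the difference between HFD+MEC1 and HFD. Ulk1 stood at 56.4 ± 8.24 CPM in HFD+MEC1 and 55.8 ± 13.1 CPM in HFD, with a log2 fold change of 0.01 and a 95% interval of -0.33 to 0.36 (adjusted p = 0.979). Sqstm1 had 389, 302, 365 and 354 CPM in HFD+MEC1, inside the HFD range except for replicate 2, and its interval was -0.28 to 0.22 (adjusted p = 0.934). Becn1 had an interval of -0.16 to 0.14 (adjusted p = 0.963). The interval was -0.32 to 0.17 for Atg7, -0.21 to 0.23 for Tfe3 and -0.27 to 0.37 for Tfeb. Tfeb had 5.43, 4.87, 6.42 and 4.72 CPM in HFD+MEC1 against 5.12, 4.57, 5.84 and 5.12 CPM in HFD, with 5.49, 5.14, 6.38 and 5.03 CPM in ND. Tfe3 had 21.5, 19.3, 20.1 and 23.7 CPM in HFD+MEC1 against 18.9, 21.8, 21.99 and 21.3 CPM in HFD, with 15.8, 16.1, 20.9 and 17.9 CPM in ND. The libraries of the 3 groups overlapped in both genes.

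In HFD+MEC1 against ND, Atg14 and Ulk1 rose and the other 38 did not pass, beside 4.54% of all tested genes called and 2.15% called higher. Atg14 reached a log2 fold change of 0.80 ± 0.14 (adjusted p = 0.00436), with every HFD+MEC1 library at 16.1 CPM or more and every ND library at 12.2 CPM or less. It stood at 17.6 ± 1.88 CPM in HFD+MEC1, 14.8 ± 2.33 CPM in HFD and 10.1 ± 1.80 CPM in ND, and the difference between HFD+MEC1 and HFD did not pass (0.24, adjusted p = 0.439). The comparison shares its ND libraries with HFD against ND and its HFD+MEC1 libraries with HFD+MEC1 against HFD. The value for Ulk1 was 0.67 ± 0.16 (adjusted p = 0.0298), and here the groups did not overlap. Its call was lost without any 1 of HFD+MEC1 replicates 1, 3 and 4 or ND replicates 1, 2 and 4, at adjusted p of 0.0508 to 0.0937. Atg14 was called in all 20 alternatives, at adjusted p of 1.86e-05 to 0.0161.

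Of the genes that rose on HFD, Calcoco1 stood at 21.4 ± 4.30 CPM in HFD+MEC1 and 15.6 ± 1.02 CPM in ND and missed the threshold (0.46 ± 0.13, adjusted p = 0.0564). Atg10 (0.37, adjusted p = 0.184) and Atg4a (0.18, adjusted p = 0.456) did not pass, and neither did Atg12 (0.16). Map1lc3b stood at 80.2 ± 14.3 CPM in HFD+MEC1 and 62.7 ± 5.38 CPM in ND (0.35 ± 0.11, adjusted p = 0.0762). In 8 of the 40 genes every HFD+MEC1 library was above every ND library, beside 5.13% of all tested genes. An unadjusted p under 0.05 was reached by 11, beside 19.1%. Of the 40, 30 were positive, beside 50.6%, and their median was 0.14 against 0.00 over all tested genes. Macrophage markers summed to 529 to 719 CPM in HFD+MEC1 and 389 to 571 CPM in ND, and sinusoidal markers to 470 to 551 CPM in HFD+MEC1 and 305 to 464 CPM in ND. Itgam and Clec4g, 1 marker of each list, rose, while Cps1 and the cholangiocyte marker Epcam fell, and the part of these cells was not tested. With library totals in place of TMM, 4 of the 40 passed, beside 4.28% of all tested genes, of which 66.8% were higher. The added members were Calcoco1 (adjusted p = 0.0386) and Map1lc3b (adjusted p = 0.0410). Calcoco1 was also called with DESeq2 (adjusted p = 0.0288, beside 8.15% of all genes) and without HFD+MEC1 replicate 2 (0.0135, beside 3.95%). Map1lc3b was also called without HFD+MEC1 replicate 1 (0.0468, beside 4.72%). Limma on RPKM added Nbr1, beside 4.27%, and leaving out ND replicate 3 added Atg2a, beside 4.61%.

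**Figure D5:**
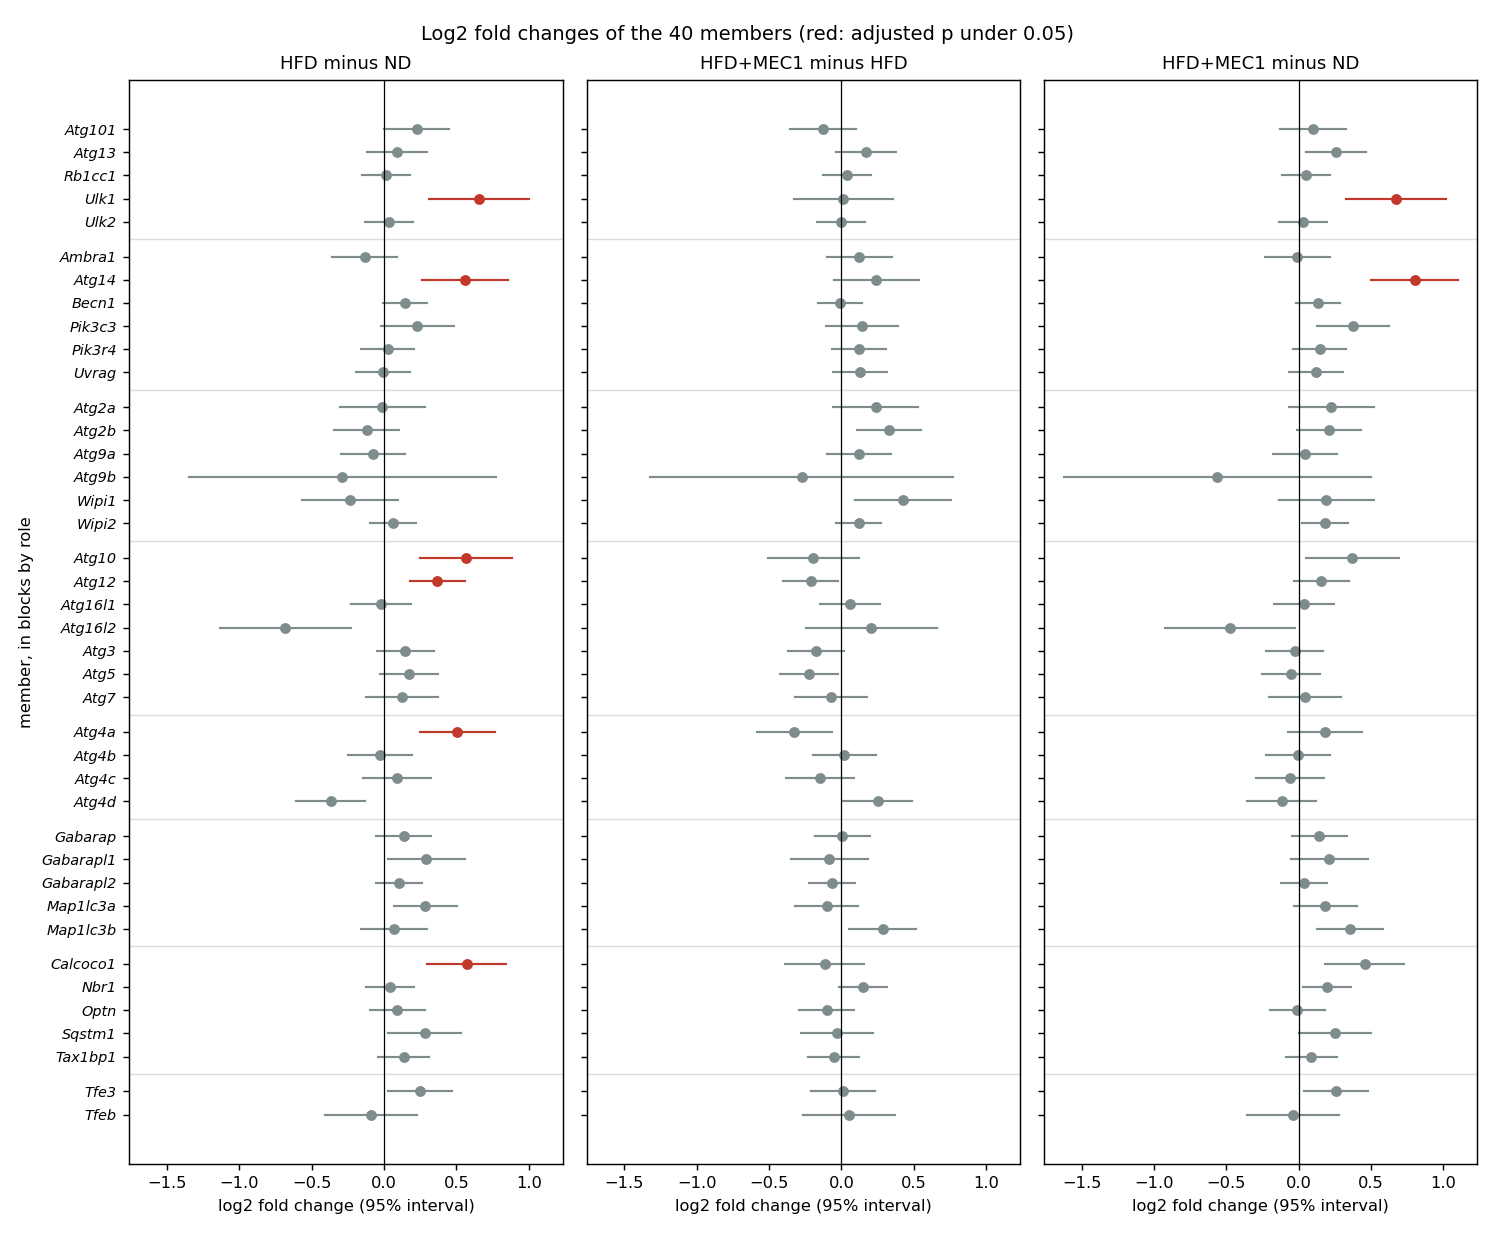
Log2 fold change with its 95% interval for each of the 40 genes in the 3 comparisons, in blocks by role. The red points (adjusted p under 0.05) are 6 in HFD minus ND, 0 in HFD+MEC1 minus HFD and 2 in HFD+MEC1 minus ND.

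Genes around the core machinery were taken from 3 further lists. Of 33 other autophagy genes, which act in regulation of the lipid kinase, selective autophagy and fusion with the lysosome, 5 rose on HFD and 0 fell (15.2%, median log2 fold change 0.14), beside 6.30% of all tested genes called and 3.35% called higher. These lists, like the 40 genes, were chosen with earlier results of these data known, so their shares support nothing further. Trp53inp2, whose product binds ATG8 proteins, averaged 267 ± 46.2 CPM in HFD and 170.1 ± 7.59 CPM in ND (0.65 ± 0.11, adjusted p = 0.00327). Nrbf2, a further subunit of the ATG14-containing lipid kinase, averaged 29.1 ± 1.73 CPM in HFD and 19.9 ± 2.21 CPM in ND (0.55 ± 0.10, adjusted p = 0.00350). The fusion gene Snap29 (0.39, adjusted p = 0.00871), the ATG8-binding Trp53inp1 (0.96 ± 0.23, adjusted p = 0.0274) and the lysosomal tethering gene Plekhm1 (0.36, adjusted p = 0.0493) also rose. In HFD+MEC1 against HFD 0 of 33 passed, beside 0.0282% of all tested genes, and Snap29 had the smallest p (-0.23, adjusted p = 0.203). In HFD+MEC1 against ND, Trp53inp2 (0.85, adjusted p = 0.000808) and Plekhm1 (0.38, adjusted p = 0.0441) rose and 0 fell. These calls were 6.06% of the 33, beside 4.54% of all tested genes.

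Among 39 tested genes of upstream signalling, such as AMPK, mTORC1 and nuclear receptors, Ppara was the 1 that rose on HFD and 0 fell. This was 2.56% of the 39, beside 6.30% of all tested genes. Ppara, a fatty acid-activated receptor, averaged 223 ± 13.1 CPM in HFD and 137 ± 16.2 CPM in ND (0.70 ± 0.11, adjusted p = 0.00187). In HFD+MEC1 against HFD 0 of 39 passed, beside 0.0282% of all tested genes. Prkaa2, a catalytic subunit of the energy sensor AMPK, had the smallest p, with 55.7 ± 6.82 CPM in HFD+MEC1 and 72.5 ± 5.25 CPM in HFD and no overlap (-0.38 ± 0.09, adjusted p = 0.101). Against ND, Prkaa2 fell in HFD+MEC1 (-0.40, adjusted p = 0.0222), and Ppara (0.85, adjusted p = 0.000670) and Flcn, a regulator of mTORC1 and of TFE3 (0.62, adjusted p = 0.0437), rose. These calls were 7.69% of the 39, beside 4.54% of all tested genes.

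Of 44 lysosomal genes 0 rose on HFD and 1 fell (2.27%), beside 6.30% of all tested genes called. It was Naglu, which degrades heparan sulfate (-0.50, adjusted p = 0.0349). In HFD+MEC1 against HFD 0 of 44 passed, beside 0.0282% of all tested genes. Atp6v0a1, a subunit of the proton pump, had the smallest p (0.25 ± 0.09, adjusted p = 0.217). In HFD+MEC1 against ND the ion transporter gene Clcn7 rose (0.44, adjusted p = 0.0423) and Glb1, which encodes a beta-galactosidase, fell (-0.52, adjusted p = 0.0399). These calls were 4.55% of the 44, beside 4.54% of all tested genes. The median log2 fold change of the 44 was 0.03 on HFD, 0.01 in HFD+MEC1 against HFD and 0.02 in HFD+MEC1 against ND.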

How the data were processed

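Liver RNA of 12 samples was measured by RNA sequencing. The authors deposited whole-number counts by gene symbol, a file per sample, and an RPKM table of the series, per the file headers; 12 of its columns match no sample and were not analysed here. STAR 2.7.10a and mm10 are named in the submitters' processing notes. The counting tool, annotation and use of strand are not given in the sources used here. Of the deposited counts from 1 to 20, 70.1 to 74.7% were even, so a fragment may count by both ends, and counting error is larger than totals imply. A count of 3 equals 0.0590 to 0.0770 CPM.

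Counts were filtered with filterByExpr, scaled with TMM and fitted over all 3 groups with edgeR 4.0.16 (R 4.3.3; quasi-likelihood, robust); the common biological coefficient of variation was 0.200. P-values are two-sided, adjusted by Benjamini-Hochberg over 14172 genes holding 99.98% of counts. DESeq2 1.42.0, limma 3.58.1 (voom, and on log2 RPKM with a pseudocount of 0.1), library totals, no filter, a replicate block, 2-group fits and leaving out each library were alternatives. The edgeR step was tested on simulated counts. Values in every library are given for members called in any comparison, the 3 with the smallest p in each, and 8 chosen for their roles; from the lists, called genes, or the gene with the smallest p. Members, roles and lists were chosen with earlier results of these data known.

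Positions are from GENCODE on GRCm38, promoters from RefSeq on GRCm38.p6. Replicates of a group differed beyond counting error (chi-square per gene of at least 35.3).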

Additional observations from a re-analysis of the deposited data

Results flagged for a closer look

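In 45 sets of 4 libraries, 15 genes in 3 groups each, 2 single libraries stood apart from the other 3 of their group by Dixon's criterion, which chance meets in about 1 of 20 sets. Atg14, the lipid kinase subunit gene, stood at 18.3 CPM in HFD replicate 4 while HFD replicates 1 to 3 ranged over 13.5 to 14.0 CPM. Becn1, its partner gene in that complex, stood at 49.6 CPM in ND replicate 4 while ND replicates 1 to 3 ranged over 46.0 to 46.5 CPM.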

How the results depend on the processing

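Under the 8 alternatives that keep all libraries, 6 to 8 members were called in HFD minus ND, beside 4.68 to 9.82% of all tested genes. The same 6 members were called each time. The added calls were lower: Atg4d with the replicate block and the 2-group fit, and Atg4d and Atg16l2 with DESeq2. With 1 library left out the count ran from 0 to 7 in HFD minus ND, beside 2.95 to 7.72% of all tested genes. It ran from 0 to 1 in HFD+MEC1 minus HFD, beside 0.00 to 3.20%. In HFD+MEC1 minus ND it ran from 1 to 3, beside 2.33 to 4.72%. Library totals in place of TMM shifted the median of all genes by 0.12 in HFD minus ND, where 79.5% of called genes were then higher, against 53.2% with TMM and 72.7% with RPKM. The member median was then 0.22 with totals and 0.19 with RPKM in HFD minus ND, and -0.044 with totals in HFD+MEC1 minus HFD. In HFD+MEC1 minus ND it was 0.21 with totals and 0.21 with RPKM. There totals called 4 members, beside 4.28% of all tested genes, and RPKM 3, beside 4.27%. In that comparison 66.8% of called genes were higher with totals and 63.3% with RPKM, against 47.2% with TMM.

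Values near 0 changed sign. In HFD minus ND, Tfeb stood at 0.033 with totals and 0.00315 with RPKM. In HFD+MEC1 minus HFD, Ulk1 stood at -0.047, Tfeb at -0.00247 and Tfe3 at -0.041 with totals, and Tfe3 at -0.00463 with RPKM. Left-out libraries gave -0.11 to 0.12 for Ulk1, -0.044 to 0.017 for Becn1, -0.14 to 0.00292 for Atg7, -0.10 to 0.088 for Sqstm1, -0.039 to 0.12 for Tfeb and -0.044 to 0.056 for Tfe3. In HFD+MEC1 minus ND, Atg5 stood at 0.021 and Tfeb at 0.031 with totals, and Atg5 at 0.031 and Tfeb at 0.036 with RPKM. Left-out libraries gave -0.10 to 0.00486 for Atg5, -0.024 to 0.12 for Atg7 and -0.13 to 0.035 for Tfeb. The cause was not tested.

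Over all genes DESeq2 called 1391 in HFD minus ND against 893 with edgeR, and 389 against 4 in HFD+MEC1 minus HFD. Libraries of different groups with equal replicate numbers had correlations of deviations from their group means of -0.0942 to 0.133. Those with unequal numbers had -0.296 to 0.170. The labels do not say that equal numbers pair samples, and these correlations cannot exclude it. The replicate block called 7 members in HFD minus ND, beside 6.32% of all tested genes. It called 0 in HFD+MEC1 minus HFD, where 21 of all genes were called, and 2 in HFD+MEC1 minus ND, beside 5.05%. Among the members, counting error limits Atg9b most, with 5 to 27 counts per library.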
